A study of Mus musculus with 2 samples.

Results

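The 1700-series transcripts are mouse genes known by the identifier of a cDNA clone from the RIKEN collection, a number starting with 1700 that ends in Rik. They were chosen from the array by that name alone, with 1700027A23Rik and 1700007K13Rik set aside, and by a signal well above background in the Foxj1 +/- channel for more than a 0.5 share of a probe's spots. This gave 223 gene names with 263 probes, out of 41167 mouse probes on the array, of which 28154 for 19547 gene names passed the same filter. The interest in them came from their share of low Foxj1 -/- over Foxj1 +/- ratios, so those ratios are described here and support nothing.

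The RNA came from the lung lobes of 1 Foxj1 -/- and 1 Foxj1 +/- male embryo of 1 litter at E16.5, both with Foxj1lacZ alleles, of a hybrid strain (Sv129/CD-1). After tissue around the lobes had been removed, 100 ng of total RNA of each lung was amplified in a single round, and the Foxj1 -/- material was labelled with Cy5 and the Foxj1 +/- material with Cy3. Both were hybridised to 1 dual-colour Agilent array with no dye swap, so that genotype, embryo and dye cannot be told apart and no difference has a replicate check. The +/- lung is itself not wild type. The sample titles read lung lobes while the source names read lung epithelium, and the titles are followed here. Lobes hold epithelium together with mesenchyme, vessels and blood. In such bulk tissue, fewer cells of a type and less RNA per cell cannot be told apart.

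Foxj1 is a forkhead transcription factor that switches on the genes of motile cilia. The axoneme, a ring of microtubules with dynein arms, radial spokes and proteins bound inside the microtubules, is built from much the same parts in the motile cilia of airway cells and in the sperm tail. Genes of the sperm tail were therefore often first cloned from testis, and many of them kept a clone name until their product was found in cilia. In the array's probe descriptions, an adult male testis library was named for 222 of the 247 1700-series probes whose description gave a RIKEN library (89.9%). It was named for 458 of 564 probes of 5 other clone prefixes used for testis libraries (81.2%), and for 23 of 1909 probes of every further prefix (1.20%). Of the 25 low probes described below, 3 had this library in their description, 1 had adult male hypothalamus and 21 had no library named. Among the measured members, this library was named for 87 probes, so 3.45% of these were low, against 1.94% of all probes on the array. No library was named for 163 members, of which 12.9% were low. A library was read only where the description was worded as a RIKEN cDNA entry, so these groups also differ in how their probes were annotated.

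The 1700-series probes with the lowest ratios are oligonucleotides of 60 bases. Their sequences in the deposited files are shown because the array names each by its clone identifier. The deposited positions refer to mm8, and the place of a probe in exon or UTR was not looked up, since no annotation of that build was used.
Cfap126 (1700009P17Rik), chr1:172963507-172963566, plus strand: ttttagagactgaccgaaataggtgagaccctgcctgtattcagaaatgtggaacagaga
Fam166c (1700001C02Rik), chr5:30760476-30760535, plus strand: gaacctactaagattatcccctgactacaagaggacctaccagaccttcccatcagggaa
1700012B09Rik, chr9:14508788-14508847, minus strand: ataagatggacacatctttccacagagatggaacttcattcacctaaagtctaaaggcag
1700012B09Rik, the other probe, chr9:14508708-14508767, minus strand: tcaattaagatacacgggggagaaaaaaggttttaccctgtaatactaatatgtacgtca
Cfap161 (1700026D08Rik), chr7:83651996-83652055, minus strand: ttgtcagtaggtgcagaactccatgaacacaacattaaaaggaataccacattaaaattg
Cibar2 (1700120B06Rik), chr8:123052403-123052462, minus strand: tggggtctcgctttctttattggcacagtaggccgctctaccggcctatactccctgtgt
Morn5 (1700010A17Rik), chr2:35901648-35901707, plus strand: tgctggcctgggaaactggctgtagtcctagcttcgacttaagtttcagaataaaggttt
1700094D03Rik, chr3:90151489-90151548, plus strand: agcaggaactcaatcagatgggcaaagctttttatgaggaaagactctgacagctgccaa
The strand is read from the order of the file's coordinates, which matched the strand of the RefSeq gene for 89 of 89 member probes that could be compared. Median GC content was 43.3% over the 25 low probes, 45.0% over the other 238 members and 41.7% over all probes that passed the filter.

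Foxj1 itself had a log2 level of 7.61 in the Foxj1 -/- channel and 9.53 in the Foxj1 +/- channel, a log2 ratio of -1.92 ± 0.30. It was not settled whether the probe reports on sequence removed by lacZ, so this value may not check the genotype labels. The lung markers Sftpc (17.41 and 17.09) and Nkx2-1 (13.01 and 13.16) were well above background in the Foxj1 -/- and the Foxj1 +/- channel. Here and below, a level is the log2 of the normalized intensity of a channel, a ratio is log2 of Foxj1 -/- over Foxj1 +/-, and ± marks the error that the scanner software gave its own log ratio, a measure of noise within the array that says nothing of how animals vary. Each member probe was spotted once.

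Of the 263 probes, 25 were at least 2-fold lower in the Foxj1 -/- channel (9.51%, exact binomial 95% interval 6.25 to 13.7%, for counting error only). They belong to 23 gene names. Against this, 546 of the 28154 probes of the whole array under the same filter were that low (1.94%), and 62 of the 3102 other Rik-named probes (2.0%). In the opposite direction 4 of the 263 probes were at least 2-fold higher (1.52%), against 0.629% of all probes and 0.484% of the other Rik-named ones. Of these 4 probes, 3 are of a single gene. By the median probe of a gene name 2 of 223 members were that high, against 107 of 19477 genes of the array by current name. The low share is the value for which these transcripts were picked out, and it carries no test.

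The ratios of the members were shifted downwards and more spread than those of the array. The median ratio of the 263 probes was -0.15, with quartiles of -0.44 and 0.07. All probes had a median of -0.01 with quartiles of -0.21 and 0.17, and the other Rik-named probes a median of -0.04. A ratio below 0 was found for 173 members (65.8%), against 51.7% of all probes and 56.0% of the other Rik-named ones, and 202 members (76.8%) lay within 0.5 of 0, against 88.1% of all probes. By the scanner's error alone, 55 members lay more than 2 errors below 0 and 8 more than 2 errors above it. This count was not made for all probes, so it cannot be set against the array. The lowest members reached -2.74 and the highest 1.88. At least 4-fold lower were 7 probes (2.66%), against 69 of all 28154 probes (0.245%) and 13 of the 3102 other Rik-named ones (0.419%).

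**Figure D1:**
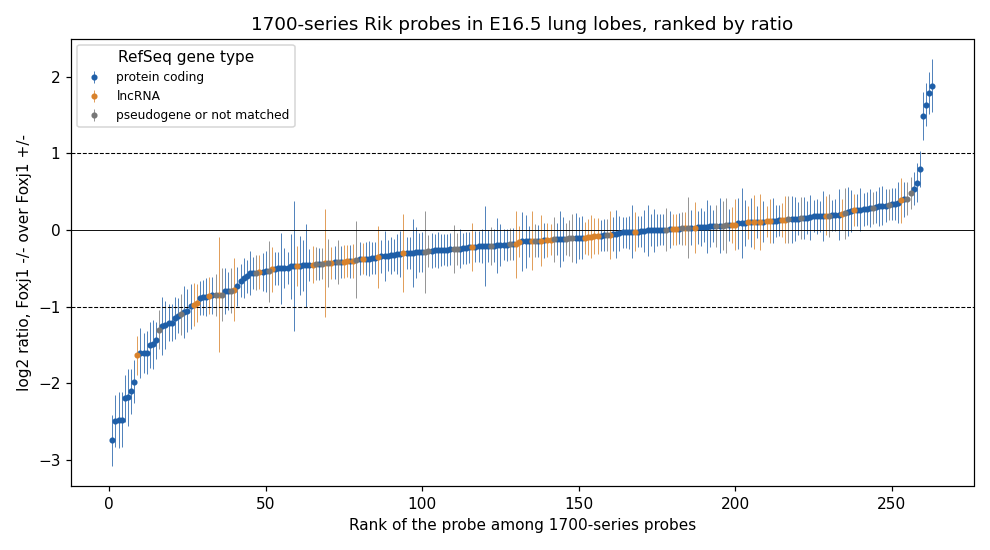
Log2 ratio of Foxj1 -/- over Foxj1 +/- (vertical axis) for each of the 263 probes of the 1700 series in order of rank (horizontal axis), with the scanner's error as bars, dashed lines at 2-fold and colours for the RefSeq gene type. The 25 probes below the lower line are nearly all from protein-coding genes, and the 4 above the upper line stand apart from the rest.

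Several low members are now named after cilia, and their ratios ran from the lowest of all to the 2-fold line. Cfap126, also called Flattop and known in mouse for docking and placing basal bodies in multiciliated cells, had a level of 10.15 in the Foxj1 -/- channel and 12.89 in the Foxj1 +/- channel. Its ratio of -2.74 ± 0.33, 6.69-fold lower, was the lowest of all members. Cfap161, a protein bound inside the microtubules of motile cilia, stood at 7.20 in Foxj1 -/- and 9.67 in Foxj1 +/- lung, a ratio of -2.47 ± 0.36. Spaca9, known from the sperm acrosome and from the lumen of ciliary microtubules, had levels of 9.74 and 11.18 in the same order, and a ratio of -1.44 ± 0.24. All 3 levels in the Foxj1 -/- channel were well above background, so that less signal was measured and not its loss.

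Fam166c belongs to a family of proteins of the ciliary microtubule lumen. One probe gave 7.59 in Foxj1 -/- and 10.08 in Foxj1 +/- lung, a ratio of -2.49 ± 0.34, while the other gave 8.32 and 8.73, a ratio of -0.41 ± 0.21. The difference of 2.08 between the probes of Fam166c was the widest of any member gene, and both lay below 0. The low probe has the sequence shown above at chr5:30760476-30760535, whereas the other spans 14260 bases of the genome, from 30742754 to 30757013 of chromosome 5, and so covers a splice junction. Its sequence is given for comparison.
Fam166c, the other probe, plus strand: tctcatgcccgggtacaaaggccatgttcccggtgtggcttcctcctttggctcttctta
Saxo2, named as a stabilizer of axonemal microtubules, also differed between its probes. The ratios were -1.24 ± 0.31 (levels 6.82 in Foxj1 -/- and 8.06 in Foxj1 +/- lung) and -0.30 ± 0.21 (levels 8.70 and 8.997), and its remaining probe was not well above background in either channel.

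The radial spokes, which carry signals from the centre of the axoneme to the dyneins, were represented by Rsph9, a spoke head protein. Its levels were 10.99 in Foxj1 -/- and 12.11 in Foxj1 +/- lung, a ratio of -1.12 ± 0.23. This is close to the 2-fold line, and with ratios centred on the median instead of loess-normalized it stood at -0.55. Cfap206, known in mouse for sperm motility, had ratios of -1.07 ± 0.34 and -0.80 ± 0.30 at its 2 probes, with levels of 6.59 and 6.76 in the Foxj1 -/- channel and of 7.66 and 7.55 in the Foxj1 +/- channel. Of these probes the one with the lower ratio passes 2-fold. Cfap299 stood at 9.31 and 10.52, a ratio of -1.21 ± 0.24. Cfap157, a protein of the sperm tail, was dim and near the rest of the array, with ratios of -0.34 ± 0.33 and -0.30 ± 0.44.

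At the ciliary base, Cibar2 (Fam92b) is a membrane-binding BAR domain protein that works with Chibby in multiciliated cells. Its level was 8.09 in Foxj1 -/- and 10.28 in Foxj1 +/- lung, a ratio of -2.19 ± 0.31. Morn5, a protein of MORN repeats, had 8.59 and 10.69, a ratio of -2.10 ± 0.29. Cabcoco1, named as a calcium-binding coiled-coil protein of cilia, was lower by less than 2-fold, at -0.88 ± 0.22, with levels of 8.60 in Foxj1 -/- and 9.48 in Foxj1 +/- lung.

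Several of the lowest members still carry their clone name in the RefSeq table used. That name does not show whether their products have a known role. For 1700012B09Rik the 2 probes gave -2.48 ± 0.37 and -2.18 ± 0.37. Levels were 6.84 and 6.63 in Foxj1 -/- lung and 9.32 and 8.81 in Foxj1 +/- lung, so that 2 stretches of the same transcript showed the same drop in signal. For 1700001P01Rik the probes also gave like values, -1.50 ± 0.30 and -1.15 ± 0.27, with levels of 6.96 and 7.07 against 8.46 and 8.22 in Foxj1 +/- lung. These were the only 2 member genes with several measured probes that were all at least 2-fold lower.

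The other coding genes listed under a clone name rest on a single measured probe each. The level of 1700094D03Rik was 9.11 in Foxj1 -/- and 11.09 in Foxj1 +/- lung, a ratio of -1.97 ± 0.28. Next came 1700028P14Rik with 6.83 and 8.44 (-1.61 ± 0.33), and 1700001L19Rik had 8.73 and 10.33 (-1.60 ± 0.26). These were more than 3-fold lower, as was 1700013F07Rik, whose levels were 7.53 in Foxj1 -/- and 9.13 in Foxj1 +/- lung (-1.60 ± 0.28). Smaller drops were measured for 1700024G13Rik at -1.49 ± 0.32, 1700018F24Rik at -1.25 ± 0.38 and 1700001F09Rik at -1.21 ± 0.24. For 1700001F09Rik the remaining probe was not well above background in either channel.

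Among members outside protein-coding genes, low ratios were few. The lncRNA 1700066C05Rik had 9.38 in Foxj1 -/- and 11.01 in Foxj1 +/- lung, a ratio of -1.63 ± 0.26. The clone 1700038C09Rik, not matched in the gene table, was at -1.30 ± 0.26 (levels 7.77 and 9.06), and the transcribed pseudogene 1700084M14Rik at -1.10 ± 0.26 (levels 7.29 and 8.39). In all, 22 of 176 probes for protein-coding genes (12.5%) were at least 2-fold lower, against 1 of 49 for lncRNAs (2.04%). It was 1 of 10 for transcribed pseudogenes and 1 of 27 without a match (3.70%). Over all probes of the array it was 1.94%, a share that was not divided by gene type. The median ratio was -0.20 for the coding probes and -0.12 for the lncRNA probes. Fabp12, of the fatty acid-binding family and not known as an axonemal gene, was the member just past the 2-fold line, at -1.05 ± 0.28.

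**Figure D2:**
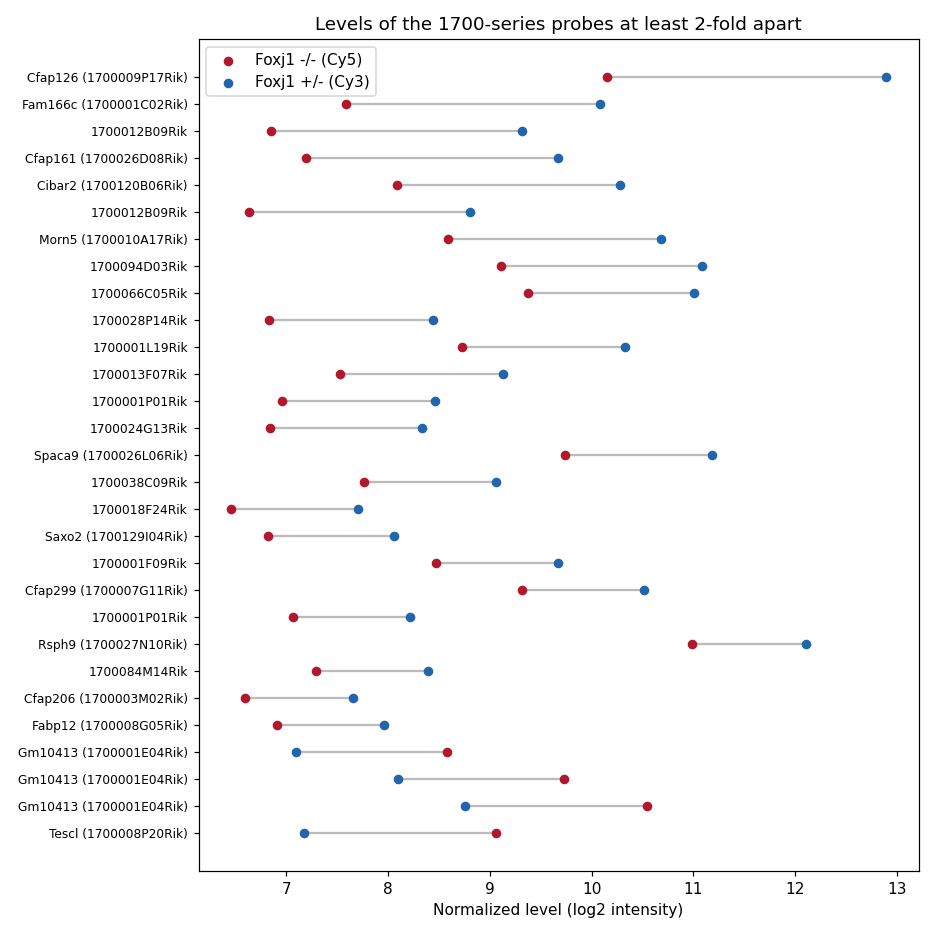
Normalized log2 level in the Foxj1 -/- channel (red) and the Foxj1 +/- channel (blue) for the 25 member probes at least 2-fold lower and the 4 at least 2-fold higher, 1 row a probe. The Foxj1 -/- point lies left of the Foxj1 +/- point in every row down to Fabp12 and right of it in the lowest 4 rows, for Gm10413 and Tescl. Levels of different rows are of different probes and are not comparable.

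Around the 2-fold line the values ran on without a gap. Just inside it were 1700084M14Rik at -1.10, Cfap206 at -1.07 and Fabp12 at -1.05, and just outside it 1700123K08Rik at -0.995, the lncRNAs 1700095A21Rik at -0.97 and 1700086L19Rik at -0.95, and 1700029J07Rik at -0.89. The scanner errors of these probes were 0.23 to 0.34, so the line parts probes that the array does not tell apart.

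The highest members were from 2 genes. Tescl, a tescalcin-like gene (1700008P20Rik), had a level of 9.06 in Foxj1 -/- and 7.18 in Foxj1 +/- lung, a ratio of 1.88 ± 0.34, or 3.69-fold higher. Gm10413 (1700001E04Rik) had 5 probes with ratios of 1.79, 1.63, 1.49, 0.62 and 0.29. In the same order their levels were 10.55, 9.73, 8.58, 7.80 and 7.49 in Foxj1 -/- and 8.76, 8.09, 7.09, 7.18 and 7.21 in Foxj1 +/- lung. All 5 were above 0, and 3 of them at least 2-fold. The files list up to 3 RefSeq transcripts for a probe of this gene, so near-identical copies may share its signal and the values are uncertain. The 2 highest probes have overlapping sequences, and over their 55 shared bases 52 are identical and 3 differ, which shows how alike the measured copies are.
Gm10413, chr14:4954215-4955229, plus strand: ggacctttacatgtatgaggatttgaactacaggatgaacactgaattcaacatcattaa
Gm10413, chr14:4954210-4955224, plus strand: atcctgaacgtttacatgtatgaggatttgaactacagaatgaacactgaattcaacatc
Tescl, chr7:24041856-24041915, minus strand: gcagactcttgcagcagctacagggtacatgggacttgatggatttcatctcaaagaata
Below 2-fold followed ccdc198 at 0.79 ± 0.23, Fam71e1 at 0.54 ± 0.22, the bright transcribed pseudogene 1700073E17Rik at 0.48 ± 0.20 and the unmatched 1700016D18Rik at 0.41 ± 0.22. The value of 1700073E17Rik was 0.11 in the scanner's own log ratio and 1.47 with median centring, which acts most on bright probes.

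Whether different probes of a gene gave the same answer could be looked at in 33 genes with 73 measured probes. The pooled SD between probes of a gene was 0.38 on the log2 scale and the median gap between the lowest and the highest probe 0.22. Only Fam166c and Gm10413 had a gap over 1, and 7 genes had one over 0.5. In 11 genes the probes lay on both sides of 0, none of them with a probe beyond 2-fold. Besides the 2 genes with all probes at least 2-fold lower, 3 had some (Fam166c, Saxo2 and Cfap206), and their other probes were also below 0. Probes of a gene measure the same RNA and are no replicates of the genotype.

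**Figure D3:**
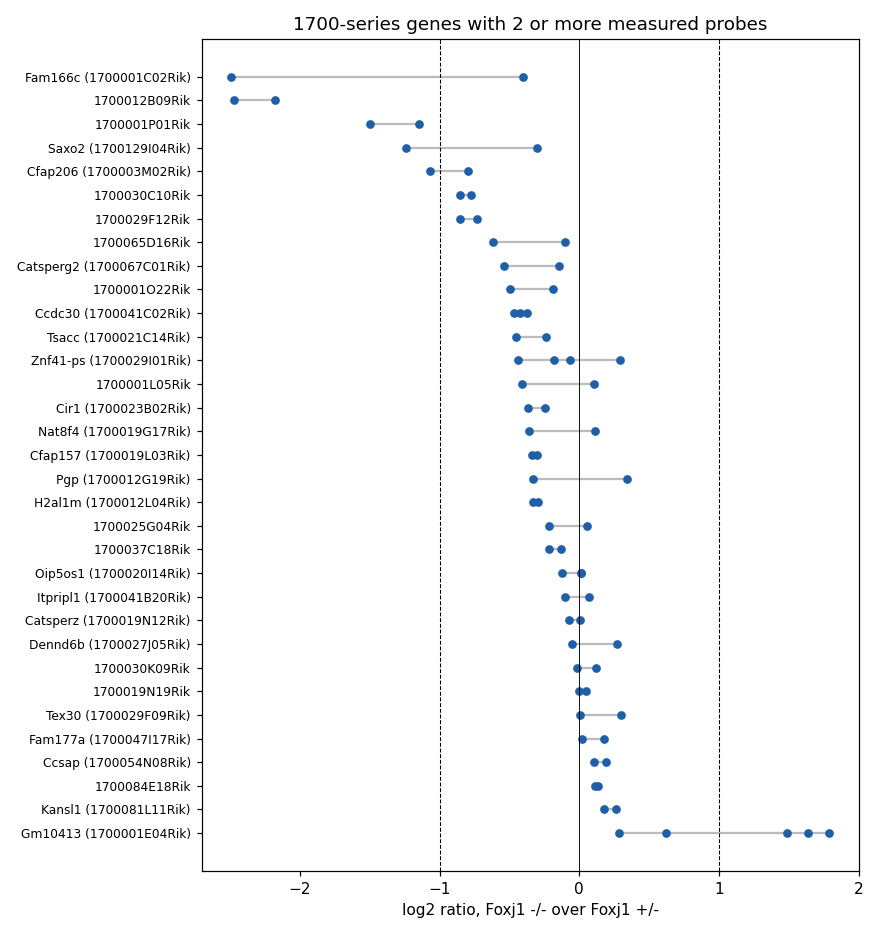
Log2 ratio of Foxj1 -/- over Foxj1 +/- (horizontal axis) of each measured probe for the 33 member genes with several, 1 row a gene, with dashed lines at 2-fold. Most rows are short and near 0, 1700012B09Rik and 1700001P01Rik have both probes left of the lower line, and the widest rows are those of Fam166c and Gm10413.

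Members with a name from sperm or testis had ratios from -1.44 to 0.32. Of 17 probes for 13 genes now named Catsper, Spata, Spatc, Spaca, Tex, Tsacc, Prss37 or Actl, a group put together after the values had been seen, Spaca9 alone was at least 2-fold lower, beside 1.94% of all probes and 9.51% of all members. The median was -0.15, as was that of all members, and nothing is read from so small a group. Catsperg2 and Catsperz, auxiliary subunits of the sperm calcium channel, had ratios of -0.54 and -0.15, and of -0.07 and 0.00. Tsacc, a co-chaperone of a testis kinase, had -0.46 and -0.24, and Tex30 had 0.30 and 0.01.

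A list of genes of male germ cells served to see whether testis transcripts at large were measured in these lungs. Of its 25 genes, 15 were well above background in the Foxj1 -/- channel, 11 in the Foxj1 +/- channel and 9 in neither, among them Acrv1, Dazl, Odf1 and Smcp. No gene of the 11 was at least 2-fold lower or higher, and their median ratio was -0.05. The 5 measured in the Foxj1 -/- channel only had bounds instead. Ddx4, an RNA helicase of germ cells, was at least 2.09-fold higher (levels 7.69 in Foxj1 -/- and 6.47 in Foxj1 +/- lung), Mael at least 1.39-fold, Sycp3 at least 1.12-fold and Akap4 at least 1.07-fold, and for Acr no bound above 1 was reached. The protamine and transition protein genes Prm2 (7.60 in Foxj1 -/- and 7.87 in Foxj1 +/- lung), Tnp1 (7.55 and 7.69) and Tnp2 (7.62 and 7.83) were only dimly measured. The probes of Prm1 did not agree, with 1 at 9.23 and 8.86 and 2 not well above background in either channel.

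Genes of the motile axoneme mostly had ratios below 0, in 86 of the 94 listed genes that passed the filter. Of the 94, 36 were at least 2-fold lower and none higher, with a median ratio of -0.80, against 406 of 19477 genes and a median of -0.02 for the whole array. Leaving out the 9 that carry a 1700-series name, Pifo (1700027A23Rik) included, it was 30 of 85 with a median of -0.66. Conversely, 7 of the 11 member probes whose current name is in that list were at least 2-fold lower (median -1.12), against 18 of the 252 other members (median -0.14). So 18 of the 25 low probes, for 16 of the 23 low genes, are of genes outside the list. The list is not complete, and Cfap299, Fam166c and Cibar2, described above, are outside it. A low gene outside the list, also one under a clone name, may thus still be a gene of cilia. Intraflagellar transport and BBSome genes, which also serve primary cilia, had none of 34 at least 2-fold lower and a median of -0.10, led by Ttc30b (-0.62) and Ift27 (-0.45).

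Some markers of other cells were also lower in the same channel. Of 13 airway secretory genes that passed, 5 were at least 2-fold lower, led by Scgb3a1 (-3.19), Scgb1a1 (-2.47) and Cyp2f2 (-1.52), and the summed processed intensity of the list was 68656 in Foxj1 -/- and 159464 in Foxj1 +/- lung, with Bpifa1 not well above background in either. Others of the secretory list went the other way, with Retnla at 1.21, Aldh1a7 at 0.36 and Bpifb1 at 0.28. Of 19 striated muscle genes, 9 were at least 2-fold lower, led by Myl7 (-3.52), Csrp3 (-2.79) and Tnni3 (-2.74), with sums of 16879 and 39640 and Pln not well above background. In all, 18 of the 19 were below 0, but the bright Actc1 stood at -0.07 and Acta1 at 0.25. Bright probes weigh most in the sums of both lists. Of 16 fate genes of multiciliated cells, 2 were at least 2-fold lower, the mutated gene Foxj1 itself and Ccna1 (-1.63), and Deup1 followed at -0.78. The median of the 16 was -0.19, with 10 below 0 and others above it, such as Rfx2 at 0.17 and Hes1 at 0.12. The part of secretory and muscle cells in the values of the 1700 series was not tested.

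Compared with other clone series, the 1700 series had the largest share of low probes among the 21 prefixes with at least 40 measured probes. The related testis prefixes together had 13 of 432 low (3.01%, exact interval 1.61 to 5.09%) and a median ratio of -0.08. At least 2-fold higher were 4 of the 432 (0.926%). Within them, the series with 96 probes had 5 low (5.21%), that with 245 probes had 6 (2.45%) and that with 41 probes had 0, which allows up to 8.60% by the exact interval. All Rik names of further prefixes had 49 of 2670 low (1.84%) and a median of -0.03. The interval of the 1700 series overlaps those of several smaller series, the testis series of 96 probes included. Intervals treat probes as independent, which probes of 1 gene are not, and this comparison chose the members.

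**Figure D4:**
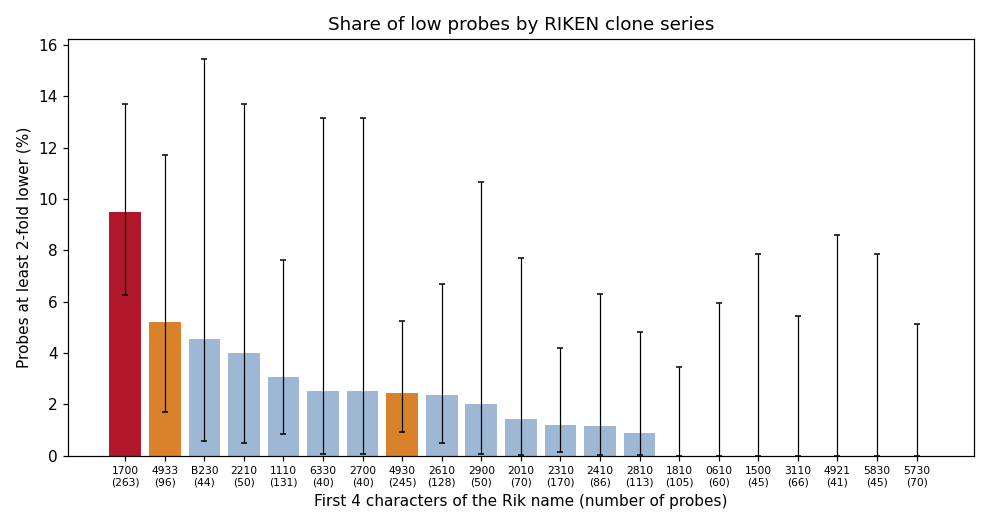
Share of probes at least 2-fold lower in the Foxj1 -/- channel (bars, in percent) for each RIKEN prefix with at least 40 probes that passed the filter, with exact binomial 95% intervals and the number of probes under each prefix. The 1700 series (red) is at 9.51%, the other testis prefixes (orange) are at 5.21%, 2.45% and 0%, and other prefixes are in blue.

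Members were dimmer than the array as a whole, with a median of 7.71 against 9.37 for the mean log2 level of both channels, and the share is given within bands of that level. Below 8 it was 10 of 148 members (6.76%), against 20 of 1144 other Rik-named probes (1.75%). From 8 to 9 it was 5 of 49 (10.2%) against 16 of 451 (3.55%), from 9 to 10 it was 5 of 20 (25.0%) against 11 of 385 (2.86%), and from 10 to 12 it was 5 of 31 (16.1%) against 11 of 652 (1.69%). At 12 and above there were 0 of 15 low members and 4 of 470 other probes. These counts divide the values by which the members were picked, with 5 to 10 low members in each band below 12, and are given as a description.

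**Figure D5:**
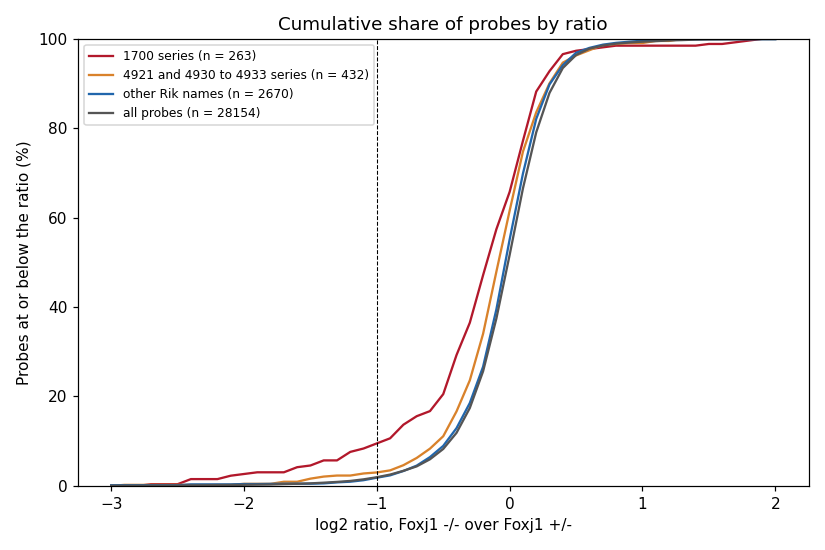
Percent of probes (vertical axis) at or below each log2 ratio of Foxj1 -/- over Foxj1 +/- (horizontal axis) for the 1700 series, the other testis prefixes, all further Rik names and all probes under the same filter, with a dashed line at 2-fold lower. The curve of the 1700 series lies above the other 3 over most of the left side of the plot and reaches 9.51% at the dashed line.

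The filter on the Foxj1 +/- channel favours probes that are low in Foxj1 -/- lung, and what it left out was looked at too. Of 524 1700-series probes on the array, 261 did not pass, and 205 of 428 gene names had no passing probe. Of the 261, 207 were well above background in neither channel and 54 in the Foxj1 -/- channel only. For 29 of the 54 a bound in the direction of higher signal in Foxj1 -/- exceeded 1, the largest being at least 1.44-fold for a further probe of Nat8f4, and none reached 2-fold. Of the 263 that passed, 11 were not well above background in the Foxj1 -/- channel. Their bounds were all small, from at least 1.15-fold lower for Efcab9 to at least 1.71-fold lower for 1700030C10Rik, and none of them is among the 25 low probes.

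The start sites of the low genes were searched for 3 letter strings, since Foxj1 is a forkhead factor and the RFX factors that act with it in ciliated cells bind a motif called the X-box. The strings were TGTTTNC (forkhead core), the palindromic X-box motif and GTTGCC (an arm of the X-box), on both strands, in RefSeq windows of 300 bases, 250 before to 50 after a gene's start, on GRCm38.p6. An arm can lie within an X-box. A window was found for 15 of the 22 low genes with a match in the gene table, 17 windows in all. The arm was present in 7 of 17 windows of low members (41.2%), in 28 of 176 of other members (15.9%), in 45 of 105 of axoneme-list genes (42.9%) and in 12.5% of all 32851 windows. The X-box was present in 3 of 17 (17.6%), in 7 of 176 (3.98%), in 11 of 105 (10.5%) and in 1.88% of all. The low genes with a match to the X-box string, Cfap126, Rsph9 and Cfap206, are also in the axoneme list. The shares of these groups are therefore not separate observations. The forkhead core was present in 4 of 17 (23.5%), in 43 of 176 (24.4%), in 28 of 105 (26.7%) and in 20.5% of all, so it was about as frequent in each. Matches are letters in a window and not sites of binding.

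For the 4 genes with the lowest ratios, the 250 bases before a start site are printed with these matches in capitals. Of the 3 windows of Cfap126 the one with an X-box is shown. The window farthest upstream holds only a forkhead core, and the remaining window holds none of the 3 strings.
Cfap126, chr1:171122795-171123044, plus strand: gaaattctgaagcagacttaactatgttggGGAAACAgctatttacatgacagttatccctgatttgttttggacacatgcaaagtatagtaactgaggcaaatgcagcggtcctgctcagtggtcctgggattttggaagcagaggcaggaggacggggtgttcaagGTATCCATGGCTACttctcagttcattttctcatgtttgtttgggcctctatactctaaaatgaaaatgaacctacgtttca
Fam166c, chr5:30465827-30466076, plus strand: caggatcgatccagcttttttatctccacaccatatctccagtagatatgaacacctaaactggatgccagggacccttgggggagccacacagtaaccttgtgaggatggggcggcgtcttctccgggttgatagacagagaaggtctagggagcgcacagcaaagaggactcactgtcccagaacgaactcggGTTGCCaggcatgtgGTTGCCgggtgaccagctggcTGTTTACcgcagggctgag
1700012B09Rik, chr9:14771031-14771280, minus strand: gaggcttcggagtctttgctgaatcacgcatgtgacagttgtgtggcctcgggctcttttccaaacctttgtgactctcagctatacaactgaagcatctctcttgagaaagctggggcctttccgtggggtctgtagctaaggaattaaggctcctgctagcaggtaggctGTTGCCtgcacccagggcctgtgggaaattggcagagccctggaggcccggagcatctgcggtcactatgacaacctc
Cfap161, chr7:83794840-83795089, minus strand: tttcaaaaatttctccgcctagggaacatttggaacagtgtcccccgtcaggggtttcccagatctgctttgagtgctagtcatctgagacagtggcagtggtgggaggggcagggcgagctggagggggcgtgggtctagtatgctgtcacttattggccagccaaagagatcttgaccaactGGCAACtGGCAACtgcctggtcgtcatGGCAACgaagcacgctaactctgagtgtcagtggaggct
In Cfap126 the X-box match GTATCCATGGCTAC begins 82 bases before the start, and a forkhead core on the opposite strand begins 220 bases before it. Fam166c holds the arm at 55 and 40 bases before it and the forkhead core TGTTTAC at 19. Cfap161 holds the arm 3 times on the opposite strand, at 66, 59 and 39 bases before the start, and 1700012B09Rik holds it once, at 78. Further matches among low genes were GTCTCCATGGAGAC in Rsph9, which begins 6 bases before the start and runs past it, and GTTTCCACGGTTAC in Cfap206, 23 bases before it. Rsph9 also holds the forkhead core, at 39 bases before the start. Cibar2 holds the arm at 69, 18 and 11 bases before the start, 1700001L19Rik at 21 and 14, 1700094D03Rik at 112 and Spaca9 at 104. The arms at 18 and 11 in Cibar2, and at 21 and 14 in 1700001L19Rik, lie on opposite strands with a single base between them. The X-box string does not allow that spacing, so they were not counted as an X-box. Morn5, 1700066C05Rik, 1700028P14Rik, 1700013F07Rik and 1700018F24Rik held none of the 3 strings in their windows.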

How the data were processed

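The 2 deposited scanner files are identical and were used as a single array, 1 channel a genotype. Mean spot and local background intensity were deposited on a linear scale, per the file headers, by Agilent Feature Extraction 9.5.3.1 (submitters' processing notes). The deposited log10 ratio of red over green, and its error, here treated as a score, come from intensity that the software dye-normalized, per the file headers. The authors' value table holds the processed intensity times 1.68 with a floor of 15, found by comparison with the scanner values (SD of the log2 factor 0.0024 for Foxj1 -/- and 0.0039 for Foxj1 +/-, 0.53 against the opposite channel). Its medians were 138.8 for Foxj1 -/- and 139.8 for Foxj1 +/-.

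Intensities were corrected by normexp with an offset of 50 and loess-normalized with control spots at weight 0 (limma 3.58.1, R 4.3.3), which was tested on simulated data. The offset understates changes of dim probes. Spots that were controls, and 169 flagged by the scanner as outliers, did not enter, and no spot was saturated. Of the 263 members, 112 were named through their accession in a RefSeq table of GRCm38.p6, 70 by symbol, 54 by synonym and 27 kept the file's name. Other steps used Python 3.11.15, pandas 2.3.3 and scipy 1.17.1.

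With 1 lung per genotype no test across genes was possible. Low and high mean a change of 2-fold or more, -1 or 1 on the log2 scale. A bound sets the measured level over the higher of the other channel's own value and its lowest value well above background. The number of arrays limits the precision. Named were all members past 2-fold, the 8 highest, the 4 nearest to -1 on each side, genes whose probes differ by over 1, members in the axoneme list and the lowest genes of other lists. Members, lists and tests were chosen with earlier results of these data known. Alternatives covered normalization, offset, source of values, filters and the counting unit.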

Additional observations from a re-analysis of the deposited data

How the results depend on the processing

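No paired analysis was possible because each genotype had 1 lung, and no sample could be left out. The count of low 1700-series probes was 43 with an offset of 0 and 55 with the scanner's log ratio or the authors' value table, against 25 in the report. For the other Rik-named probes it was 133 and 216 (62 in the report), and for the axoneme list 57 genes with the scanner's log ratio or the value table (36 in the report). Probes at least 2-fold higher numbered 7 with either of these. As shares, low probes made 20.9% of the members and 6.96% of the other Rik-named probes with the scanner's log ratio. At 1.5-fold 44 members were low (16.7%, against 7.03% of the other Rik-named probes) and at 4-fold 7 (2.66%, against 0.419%). With a mean log2 level of at least 9, a setting chosen after seeing the data, it was 10 of 66 members and 26 of 1507 others. Median centring moved the median of all probes to 0.35 and turned that of the other Rik-named probes to 0.27, while the members stood at -0.13 and 26 of them were low. Of the 25 low probes, 21 stayed at least 2-fold lower there, and Spaca9 (-0.92), 1700001F09Rik (-0.85), Cfap299 (-0.73) and Rsph9 (-0.55) did not. All 25 did under the other alternatives run for single probes, and no ratio past 2-fold changed sign. The filters on dim probes left the count of low members at 25, but their share changed with the number of probes kept. It was 7.89% of 317 with either channel, 9.92% of 252 with both and 4.77% of 524 with no filter. Of the other Rik-named probes 1.76%, 1.81% and 1.22% were low in the same order. The median of the probes of a gene name gave 21 of 223 low, and with the 2 left-out names 27 of 265 members were low. Dye, embryo and genotype cannot be told apart under any setting.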
